A study of Mus musculus with 6 samples.

Results

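The mitochondrial tRNA that carries glutamate, mt-tRNA-Glu (gene mt-Te), left 9 small fragments among the tRNA-derived fragments (tRFs) that the authors called decreased in islets of *db/db* mice. These 9 were taken from the 170 tRFs of the deposited list by the name of their host tRNA, and make up 9 of its 147 fragments of mitochondrial tRNAs (mt-tRFs). They are the fragments of this tRNA on that list, not every fragment it may give, and fragments called increased or unchanged were not analysed here.

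Small RNA was sequenced from pancreatic islets of 3 *db/+* and 3 *db/db* male mice, with 1 library per mouse. The *db/+* mice were heterozygous, labelled BKS(D)-Leprdb/+/JorlRj, and the *db/db* mice were homozygous for the same mutation of the leptin receptor gene, labelled BKS(D)-Leprdb/JOrlRj. All were 16 weeks old and on chow diet. The labels name a breeder's line, whereas the methods of the study place the mice of this age in another colony, so their origin is not settled. The mutation acts in the whole animal, and the *db/+* controls carry 1 copy of it. The comparison asks which tRFs change in islets of obese animals that develop diabetes. The labels call the *db/db* mice pre-diabetic, whereas the text of the study calls them diabetic and reports fasting hyperglycaemia at about this age. Whole islets hold several endocrine cell types, and the list contains no marker gene with which their make-up could be checked. In such bulk samples fewer cells of a type and less RNA per cell cannot be told apart.

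Mitochondrial tRNAs are cut out of long transcripts that cover most of each strand of the mitochondrial genome. RNase P cuts at their 5′ end and RNase Z at their 3′ end, and a nucleotidyltransferase then adds CCA, which the gene does not encode, so that an amino acid can be attached. mt-tRNA-Glu comes from the light-strand transcript, is charged by the mitochondrial glutamyl-tRNA synthetase (EARS2) and brings glutamate to the mitochondrial ribosome, which makes core subunits of the respiratory chain. Mutations of its human counterpart, MT-TE, are known for myopathy with diabetes, and β-cells depend on mitochondrial ATP to release insulin.

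The gene mt-Te (ENSMUSG00000064369.1, biotype Mt_tRNA) has 69 bases on the minus strand at chrM:14071-14139 of GRCm38, next to mt-Nd6 (chrM:13552-14070), the only protein gene of the light strand, and near mt-Cytb (chrM:14145-15288) on the other strand. Its sequence is shown because every start site below is counted on it, from base 1 at the 5′ end, and the capitals mark the anticodon at bases 31 to 33:

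mt-Te gene: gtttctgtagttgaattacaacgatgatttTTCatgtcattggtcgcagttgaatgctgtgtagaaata

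All 9 fragments matched this gene, with CCA added, base for base, and the authors assigned each to this 1 tRNA alone. The most abundant one, the 5′ fragment and the 3′ fragments at either end of the range of start sites are printed to show where they begin, and the capitals mark the added CCA:

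5′ fragment, bases 1 to 22 (chrM:14118-14139): gtttctgtagttgaattacaac

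3′ fragment from base 30 (chrM:14071-14110 and CCA): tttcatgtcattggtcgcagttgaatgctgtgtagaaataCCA

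3′ fragment from base 31 (chrM:14071-14109 and CCA): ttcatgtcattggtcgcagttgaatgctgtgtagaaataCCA

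3′ fragment from base 34 (chrM:14071-14106 and CCA): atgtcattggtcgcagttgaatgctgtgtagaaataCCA

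3′ fragment from base 38 (chrM:14071-14102 and CCA): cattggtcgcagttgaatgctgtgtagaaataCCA

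Thus 8 of the 9 were 3′ fragments that share 1 end, base 72 of the mature tRNA with its CCA, and differ only in where they begin. They start at bases 30, 31, 32, 33, 34, 35, 36 and 38 and are 43, 42, 41, 40, 39, 38, 37 and 35 nt long. The authors' table types these 8 as internal (i-tRF) and gives the host a length of 73, 1 base more than the 72 of gene and CCA, although each ends in the complete CCA. With the anticodon in the middle of a loop of 7 bases, the loop covers bases 29 to 35, and the bases on its sides, 24 to 28 and 36 to 40, can pair at all 5 positions. The fragments from bases 30 to 35 therefore begin inside the anticodon loop, and those from bases 36 and 38 in the 3′ side of the anticodon stem. Those from bases 30 and 31 keep all 3 bases of the anticodon, that from base 32 keeps 2 and that from base 33 keeps 1. That from base 34 begins right after the anticodon. It is the only one whose start lies between a pyrimidine (C) and an A, a pair of letters at which ribonucleases of the RNase A family, such as angiogenin, are known to cut. A pyrimidine, here T, also comes right before the start of each other 3′ fragment except that from base 35. Which enzyme made these fragments was not tested. The 5′ fragment ends at base 22, before the anticodon stem, so it and the 3′ fragments are not the matching pieces of 1 cut.

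Levels are given as normalized reads, the raw reads divided by the DESeq2 size factors of the authors, which were recovered from the deposited means. Values for the 3 mice of a group follow the order of replicates 1, 2 and 3. The 9 fragments had 1400, 1588 and 581 raw reads in the *db/+* islets and 62, 285 and 379 in the *db/db* islets. These counts set the precision, which is lowest in *db/db* replicate 1. All listed tRFs together had 25301 to 31989 reads in the *db/+* and 1730 to 7639 in the *db/db* libraries, but they add up only tRFs picked for being decreased, and the depth of the libraries is unknown. The size factors were 1.68, 1.59 and 0.668 in the *db/+* and 0.509, 1.005 and 1.20 in the *db/db* libraries. Among the listed mt-tRFs, *db/+* replicate 3 stood apart, with 34957 normalized reads where the other *db/+* libraries had 11450 and 15986. The size of that excess depends on the low size factor of this library. In raw reads of all listed tRFs, nuclear ones included, it was the lowest of the *db/+* libraries, with 25301. The listed nuclear tRFs, however, summed to 2916 normalized reads there, against 4260 and 4091 in *db/+* replicates 1 and 2. Relative to them, the mt-tRFs were highest in *db/+* replicate 3 whatever its size factor.

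The summed level of the 9 fragments was 834, 997 and 870 normalized reads in the *db/+* islets and 122, 284 and 315 in the *db/db* islets. The groups did not overlap, and the *db/+* libraries lay close together whereas *db/db* replicate 1 was the lowest. The means were 900.1 ± 85.6 in *db/+* and 240.2 ± 104 in *db/db* islets (SD, n = 3 each), or 3.75-fold lower (two-sided exact permutation test, p = 0.1, below which 3 against 3 cannot go). On the log2(sum + 1) scale the difference was -2.01 (standard error, SE, 0.51, adjusted p = 0.00952 over the 30 listed parent tRNAs, limma with trend). All 30 sums passed this test at 0.05. Because the fragments were put on the list for their decrease in these same libraries, the folds and p-values in this report describe tRFs already selected, and cannot serve as independent evidence that they fell. The scale also sets the size: when the libraries were rescaled so that the summed listed nuclear tRFs, themselves listed as decreased, were equal, the difference of the mt-tRNA-Glu sum was -0.70 (adjusted p = 0.317, limma). That rescaling moved the median log2 fold change of all 170 listed tRFs by 1.26.

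**Figure D1:**
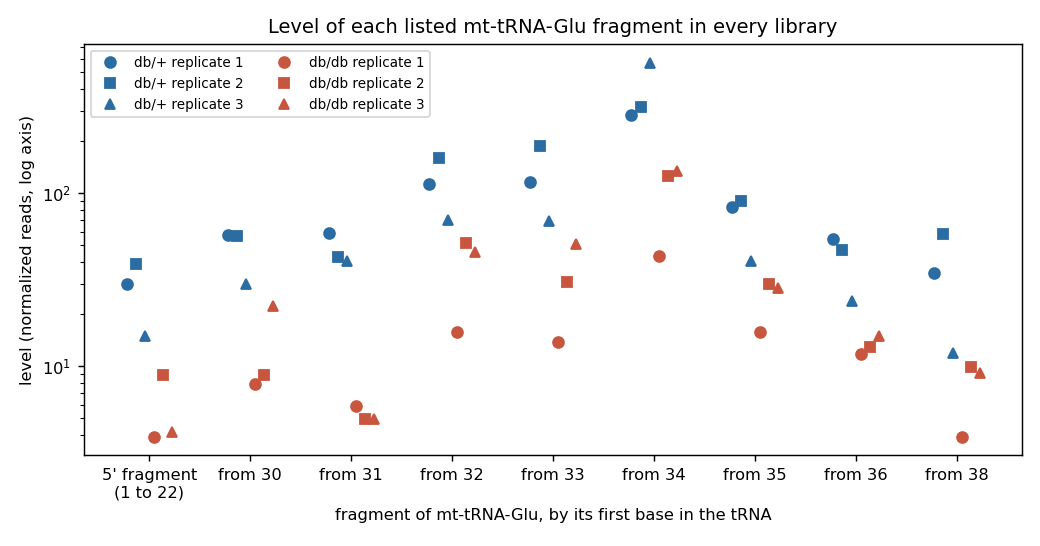
Level of each listed mt-tRNA-Glu fragment in every library, in normalized reads on a log axis, with fragments ordered by their first base in the tRNA. Each point is 1 mouse (blue *db/+*, red *db/db*). The fragment from base 34 was the highest in every library, at 285 to 569 normalized reads in the *db/+* islets and 43.2 to 135 in *db/db* mice, and for each fragment every red point lies below every blue one.

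Each of the 9 fragments was lower in *db/db* islets with the authors' size factors, with log2 fold changes (log2FC) from -3.16 to -1.52 and a median of -1.94, but 6 of the 9 were above 0 with TMM factors computed over the list. That scaling moved the median of all 170 listed tRFs by 1.98, from -2.42 to -0.44, and the median of the 9 to 0.12. With the authors' size factors, all 9 were called by edgeR's quasi-likelihood test, which required a 2-fold decrease or more with an adjusted p no higher than 0.05 (adjusted p from 0.00250 to 0.0345, over the 170 tRFs), where 97.6% of the list was called. The 5′ fragment and the 3′ fragments from bases 30, 31, 36 and 38 were also called with any 1 library left out, and the other 4 lost the call in at least 1 of these fits. Without *db/+* replicates 1, 2 and 3 in turn, 7, 5 and 9 of the 9 were called by edgeR, where 95.3%, 87.6% and 92.9% of the list was called. Without *db/db* replicates 1, 2 and 3 in turn, 6 of the 9 were called each time, where 85.3%, 88.2% and 84.1% of the list was called. The 3 *db/db* values were all under the 3 *db/+* values in all 9, as in 94.7% of the list. Both shares are fixed in large part by how the list was made. At an adjusted p no higher than 0.01, 5 of the 9 and 72.4% of the list were called by edgeR, and with a decrease of 4-fold or more, 3 of the 9 and 76.5% of the list. All 9 were called with DESeq2, the tool by which the list was made, as was 100.0% of the list, and all 9 among tRFs with a mean level of 10 or more, as was 97.4% of these. After rescaling to the listed nuclear tRFs 0 of the 9 and 1.18% of the list were called by edgeR, and with TMM factors 0 of the 9 and 0.0% of the list. At an unadjusted p under 0.05, 1 of the 9 passed in each of these fits, with 50 and 20 of the 170. The median decrease of the 9 was smaller than that of the whole list, and 81.4% of the other 161 listed tRFs had a larger decrease. The other 138 mt-tRFs had a median log2FC of -2.54.

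The 3′ fragment from base 34 was the most abundant and ranked 10th of the 147 listed mt-tRFs by mean level. It had 285, 314 and 569 normalized reads in the *db/+* islets and 43.2, 125 and 135 in the *db/db* islets. The groups did not overlap, but *db/+* replicate 3 was well above the other *db/+* libraries. The means were 390 ± 156 and 101 ± 50.3 (SD, n = 3 each), and the log2FC was -1.94 (SE 0.74, adjusted p = 0.0243, edgeR). Without *db/+* replicate 3 the log2FC of this fragment was -1.56 (adjusted p = 0.0266, edgeR). The call was lost without *db/+* replicate 2 (adjusted p = 0.0577) and without each *db/db* library, replicates 1, 2 and 3 (adjusted p = 0.0626, 0.0572 and 0.0592, edgeR).

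The fragment from base 31, the first base of the anticodon, had the largest decrease of the 9. It had 59.0, 42.7 and 40.4 normalized reads in the *db/+* islets and 5.89, 4.98 and 4.99 in the *db/db* islets, from 99, 68 and 27 and 3, 5 and 6 raw reads. The groups lay far apart with little spread in either. The means were 47.4 ± 10.1 and 5.29 ± 0.527 (SD, n = 3 each), or 8.96-fold lower, and the log2FC was -3.16 (SE 0.52, adjusted p = 0.00250, edgeR), between -3.27 and -2.97 with each library left out in turn. The small spread in *db/db* mice is less than reads as few as these give by counting alone. The size again depends on the scale. After rescaling to the listed nuclear tRFs the log2FC of this fragment was -1.85 (adjusted p = 0.0785, edgeR). With TMM factors over the list it was -1.13 (adjusted p = 0.422, edgeR).

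Its neighbours, which differ from it by 1 nt at the 5′ end, fell less in the fitted values. The one from base 30 had 57.2, 56.5 and 29.9 normalized reads in the *db/+* islets and 7.86, 8.96 and 22.4 in the *db/db* islets, and a log2FC of -1.82 (SE 0.57, adjusted p = 0.00975, edgeR). Its highest *db/db* library, replicate 3, came near its lowest *db/+* library, and the log2FC without that library was -2.49. The one from base 32 had 113, 161 and 70.4 normalized reads in the *db/+* islets and 15.7, 51.7 and 45.7 in the *db/db* islets, and a log2FC of -1.58 (SE 0.66, adjusted p = 0.0345, edgeR). This was the weakest call of the 9: it passed without *db/+* replicate 3 but not without *db/+* replicates 1 or 2 (adjusted p = 0.0585 and 0.144) or *db/db* replicates 1, 2 or 3 (adjusted p = 0.0772, 0.0541 and 0.0691, edgeR). In *db/db* replicate 3 the fragments from bases 30, 31 and 32 had 27, 6 and 55 raw reads, and in *db/+* replicate 3 they had 20, 27 and 47. The difference in fold change between these neighbours was seen in the values and was not tested.

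The other 3′ fragments were also lower in *db/db* islets with the authors' size factors, from levels below that of the fragment from base 34, although those from bases 33, 35 and 36 were above 0 with TMM factors over the list. That from base 33, which keeps the last base of the anticodon, had 117, 188 and 68.9 normalized reads in the *db/+* islets and 13.8, 30.8 and 50.7 in the *db/db* islets, a log2FC of -1.95 (SE 0.69, adjusted p = 0.0177, edgeR). The call was lost without *db/+* replicate 2 or without *db/db* replicate 2 (adjusted p = 0.0801 and 0.0601, edgeR). That from base 35, the last base of the loop, had 40.4 to 89.7 normalized reads in the *db/+* islets and 15.7 to 29.9 in *db/db* mice. It had the smallest decrease of the 9, a log2FC of -1.52 (SE 0.57, adjusted p = 0.0232, edgeR), and did not pass without *db/+* replicates 1 or 2 (adjusted p = 0.0674 and 0.0934) or *db/db* replicates 1 or 3 (adjusted p = 0.0541 and 0.0556, edgeR). The fragments that begin in the anticodon stem were scarcer. That from base 36 had 24.0 to 54.8 normalized reads in the *db/+* islets and 11.8 to 15.0 in *db/db* mice (log2FC -1.66, SE 0.51, adjusted p = 0.00916, edgeR). That from base 38 had 12.0 to 58.4 and 3.93 to 9.95 (log2FC -2.13, SE 0.62, adjusted p = 0.00750, edgeR).

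The 5′ fragment of 22 nt was the only one from the other end of the tRNA and the least abundant of the 9. It had 29.8, 38.9 and 15.0 normalized reads in the *db/+* islets and 3.93, 8.96 and 4.16 in the *db/db* islets. The groups did not overlap, and *db/+* replicate 3 was the lowest of its group here, although it was the highest for the fragment from base 34. The means were 27.9 ± 12.1 and 5.68 ± 2.84 (SD, n = 3 each), with a log2FC of -2.26 (SE 0.58, adjusted p = 0.00468, edgeR). The 3′ fragments together exceeded the 5′ fragment 27.0-fold, 24.6-fold and 57.1-fold in *db/+* and 30-fold, 30.7-fold and 74.8-fold in the *db/db* islets. The ranges of this ratio overlapped between the groups (two-sided exact permutation test, p = 0.5). Both sides of the ratio hold only fragments listed as decreased, which limits how far it could differ.

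**Figure D2:**
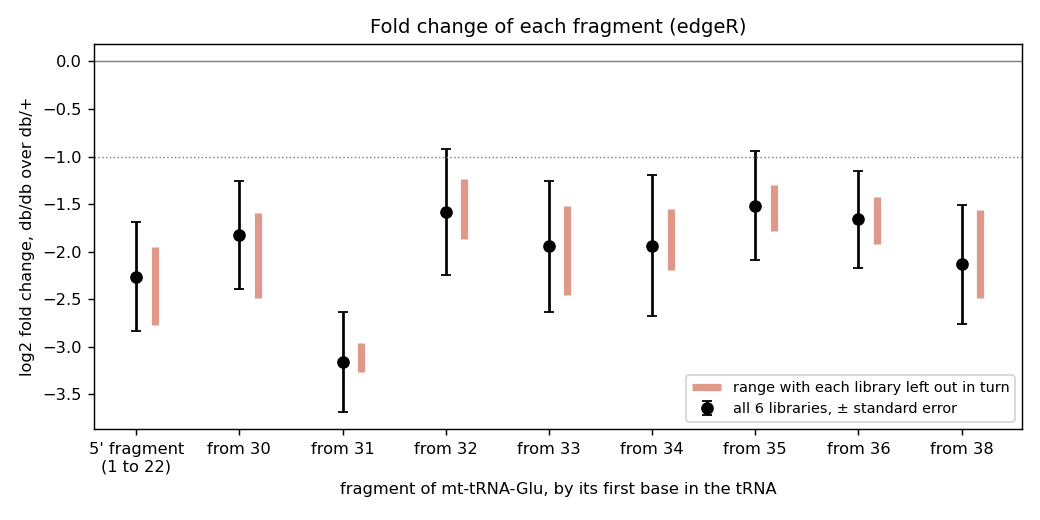
Log2 fold change (log2FC) of each fragment, *db/db* over *db/+*, from edgeR with the authors' size factors. Points and black bars give the value and its SE over all 6 libraries, red bars the range with each library left out in turn, and the dotted line the 2-fold limit. Among them base 31 is lowest at -3.16 and base 35 highest at -1.52. All 9 points are below 0 on this scale, and 6 are above 0 with TMM factors over the list.

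The make-up of the mt-tRNA-Glu reads was compared next. The choice of the list did not use these shares directly, but it limits them. Every fragment counted was listed as decreased, and one that held steady or rose would be missing. The fragment from base 34 took 34.2% of the listed mt-tRNA-Glu reads in *db/+* replicate 1 (95% Wilson interval 31.8 to 36.7), 31.5% in replicate 2 (29.3 to 33.9) and 65.4% in replicate 3 (61.4 to 69.2). In *db/db* replicates 1, 2 and 3 it took 35.5% (24.7 to 47.9), 44.2% (38.6 to 50.02) and 42.7% (37.9 to 47.8). The interval of *db/+* replicate 3 lay above those of all other libraries, and the groups overlapped. The intervals cover counting error only. The mean share was 43.7% ± 18.8 in *db/+* and 40.8% ± 4.67 in *db/db* islets (SD, n = 3 each), which did not differ beyond the spread (two-sided exact permutation test, p = 1.0). This comparison rested on *db/+* replicate 3: the difference, *db/db* minus *db/+*, was -2.91 percentage points with it and 7.93 without it. The other *db/+* shares, 34.2% and 31.5%, lay below every *db/db* share, although the interval of *db/db* replicate 1 (24.7 to 47.9) covers both.

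**Figure D3:**
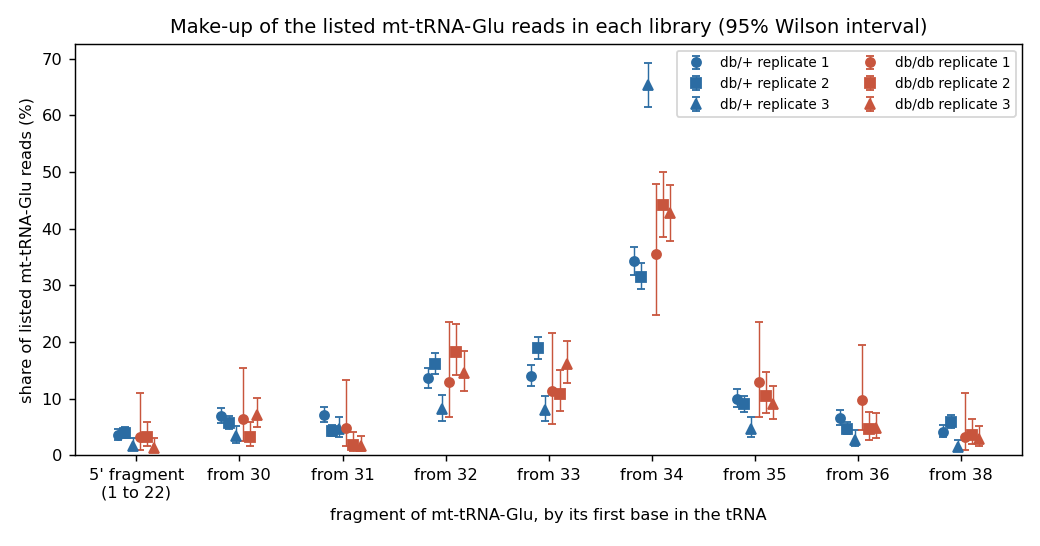
Share of the listed mt-tRNA-Glu reads taken by each fragment in each library, in percent, with 95% Wilson intervals (blue *db/+*, red *db/db*). For the fragment from base 34, *db/+* replicate 3 is at 65.4% and the other libraries are at 31.5% to 44.2%. The intervals of *db/db* replicate 1, with 62 reads, are the widest.

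The excess in *db/+* replicate 3 was in the fragment from base 34 alone among the 9. In that library the other 8 fragments summed to 301 normalized reads, whereas replicates 1 and 2 of *db/+* had 549 and 682, and the level of each of the 8 was the lowest of the 3 *db/+* libraries. In *db/db* replicates 1, 2 and 3 the other 8 summed to 78.6, 158 and 180, so that the groups did not overlap without the fragment from base 34 either. The means were 511 ± 193 and 139 ± 53.5 (SD, n = 3 each), 3.67-fold lower (two-sided exact permutation test, p = 0.1, again the lower limit). With the authors' size factors, the most abundant fragment and the other 8 deviate in opposite directions in *db/+* replicate 3. Their sum is near those of the other *db/+* mice. Without *db/+* replicate 3 all 9 fragments were called by edgeR, as was 92.9% of the list.

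**Figure D4:**
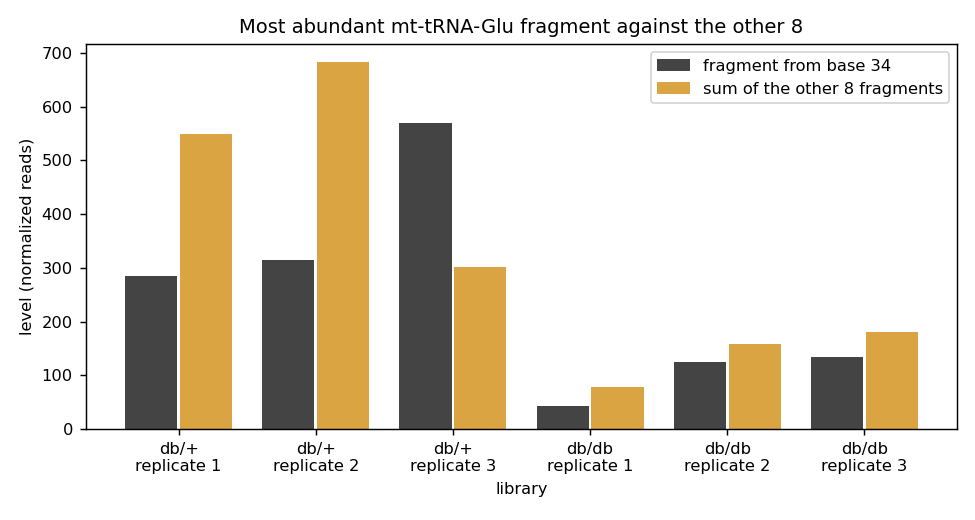
Level of the fragment from base 34 (dark bars) and summed level of the other 8 fragments (yellow bars) in each library, in normalized reads. In *db/+* replicate 3 the dark bar, at 569, is higher than the yellow bar, at 301. In the other 5 libraries the yellow bar is the higher one.

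The same library stood apart in other mt-tRNAs. Among the 44 other listed mt-tRFs that begin inside the tRNA and end in CCA, which come from 12 mt-tRNAs, 15 begin between a pyrimidine and an A. These 15 took 42.5%, 48.9% and 83.7% of the reads of the 44 in the *db/+* islets and 47.5%, 64.8% and 52.4% in the *db/db* islets. For mt-tRNA-Glu the share of its 3′ fragments that begin so was 35.5%, 32.8% and 66.5% in *db/+* and 36.7%, 45.7% and 43.3% in the *db/db* islets. In both sets *db/+* replicate 3 was the highest library, and the groups overlapped. What sets this mouse or library apart was not tested. This comparison was chosen after the values of the fragment from base 34 were seen.

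Of the 8 shares compared between the groups, none differed beyond the spread of the libraries (two-sided exact permutation tests, p from 0.3 to 1.0, adjusted p from 0.96 to 1.0), and with 3 mice a group none could have fallen under 0.1. Of the 8, 3 belonged to the planned comparisons and 5 were added after the values were seen. Since only fragments listed as decreased were counted, a shift toward fragments that held steady or rose could not appear. Fragments that end in CCA, the same ones as those of 30 nt or longer, took 96.1% to 98.3% of the reads in *db/+* and 96.8% to 98.7% in *db/db* mice. Reads of the fragment from base 31 made up 7.07%, 4.28% and 4.65% in the *db/+* islets and 4.84%, 1.75% and 1.58% in the *db/db* islets, where the 4.84% is 3 of 62 reads (95% Wilson interval 1.66 to 13.3). It had the smallest p of the 8, with means of 5.33% ± 1.52 and 2.73% ± 1.83 (SD, n = 3 each, two-sided exact permutation test, p = 0.3). The fragments from bases 32 and 33 took 16.0% to 35.01% in *db/+* and 24.2% to 30.6% in *db/db* mice, and those from bases 35 to 38 took 8.78% to 20.7% and 16.6% to 25.8%. The mean length of the 3′ fragments, weighted by reads, was 39.5 nt ± 0.0768 in *db/+* and 39.4 nt ± 0.0922 in *db/db* islets (SD, n = 3 each, two-sided exact permutation test, p = 0.3).

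The mt-tRNA-Glu fragments begin from 3 bases before to 5 bases after the last base of the anticodon, a window taken from the 8 themselves. Of the 44 other mt-tRFs of this form, 15 begin in that window (34.1%), in 6 of the 12 mt-tRNAs, and 2 begin right after the anticodon, 1 each in the tRNAs for alanine and methionine. No test was made of these counts, since the window was set by the mt-tRNA-Glu fragments.

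Among the 19 mt-tRNAs with listed fragments, mt-tRNA-Glu ranked 7th by the mean of its summed level. Its neighbours were mt-tRNA-Asp above, with 1220 ± 641 normalized reads in the *db/+* islets and 191 ± 115 in *db/db* mice, and mt-tRNA-Thr below, with 954 ± 733 and 153 ± 85.7 (SD, n = 3 each). Differences in level between these 3 were not tested. Within libraries, on the log2(sum + 1) scale, mt-tRNA-Glu relative to mt-tRNA-Thr was -1.05 in *db/+* replicate 3. In all other libraries this value was between 0.55 and 1.13. Relative to mt-tRNA-Asp it ran from -1.17 to 0.99. In *db/+* replicate 3 the sums of mt-tRNA-Asp and mt-tRNA-Thr were 1959 and 1799 normalized reads, against 824 to 876 and 484 to 580 in the other *db/+* mice, whereas that of mt-tRNA-Glu, at 870, was not raised. The normalized reads depend on the size factor of that library, 0.668. The values relative to mt-tRNA-Thr and mt-tRNA-Asp are taken within a library, so they hardly depend on it. In raw reads mt-tRNA-Glu had 581 there, against 1400 and 1588 in the other *db/+* mice. The share of mt-tRNA-Glu in all listed mt-tRF levels was 7.28%, 6.23% and 2.49% in *db/+* and 5.90%, 5.03% and 6.45% in the *db/db* islets. This share overlapped between the groups (two-sided exact permutation test, p = 0.9).

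The mt-tRNAs read from the same strand were compared with it, since they share its transcript. Of the 7 other light-strand mt-tRNAs, 6 had listed fragments, and all 6 sums had an adjusted p of at most 0.05 by limma, as did all 30 parents. The largest difference was that of mt-tRNA-Gln, with 151 ± 85.4 normalized reads in the *db/+* islets and 18.5 ± 12.6 in *db/db* islets (SD, n = 3 each) and a log2FC of -3.17 (SE 0.74, adjusted p = 0.00811, limma). mt-tRNA-Pro and mt-tRNA-Ala had log2FCs of -2.89 (SE 0.57) and -2.60 (SE 0.56). The difference of mt-tRNA-Glu relative to mt-tRNA-Gln, mt-tRNA-Pro and mt-tRNA-Ala, *db/db* minus *db/+*, was 1.15, 0.88 and 0.58 on the log2(sum + 1) scale, without overlap between the groups. Each had p = 0.1 (two-sided exact permutation test, the lowest p this design allows), and 0.233 when adjusted over the 7 comparisons, so that none passed. Such separation was not particular to this strand. It was also seen relative to the nuclear tRNA-Arg-TCG, at -0.34, and to some mt-tRNAs of the other strand. For mt-tRNA-Gln the gap was narrow, 3.38 in *db/+* replicate 1 against 3.40 in *db/db* replicate 2. The mt-tRNA-Gln sum in *db/db* replicate 1 was only 3.93 normalized reads, and a pseudocount of 5 lowered 1.15 to 0.80. Without *db/+* replicate 3 these differences were 0.71, 0.54 and 0.27, and without *db/db* replicate 1 that relative to mt-tRNA-Gln was 0.77. With each library left out in turn they ran from 0.71 to 1.49, from 0.54 to 1.07 and from 0.27 to 0.75. The differences relative to mt-tRNA-Asn, mt-tRNA-Cys and mt-tRNA-Ser of anticodon TGA were 0.32, 0.35 and 0.11, within the spread of the libraries (two-sided exact permutation test, p = 0.6, 0.8 and 0.8), and each changed sign with 1 library left out, reaching -0.20, -0.36 and -0.17. In 14 of the other 18 mt-tRNAs the fitted decrease of the sum was larger than in mt-tRNA-Glu.

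The nuclear tRNA with the same amino acid and anticodon, tRNA-Glu-TTC, which serves the cytosolic ribosome, had 7 listed fragments and higher levels. Its sum was 3245, 3025 and 1895 normalized reads in the *db/+* islets and 1102, 1302 and 1128 in the *db/db* islets. The log2FC was -1.17 (SE 0.42, adjusted p = 0.0244, limma). Relative to it, mt-tRNA-Glu was lower in *db/db* mice by a further 0.84 on the log2 scale, a difference of -0.84 that did not pass (two-sided exact permutation test, p = 0.2, adjusted p = 0.35), and the groups overlapped. With each library left out in turn it was between -1.12 and -0.46, the latter without *db/db* replicate 1.

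**Figure D5:**
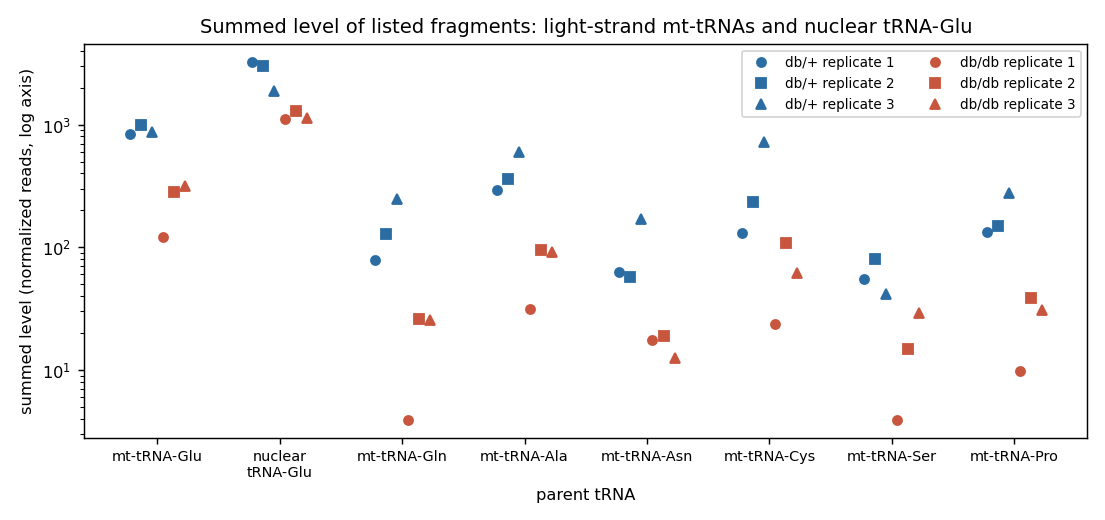
Summed level of the listed fragments of mt-tRNA-Glu, of the nuclear tRNA-Glu-TTC and of the 6 other light-strand mt-tRNAs with listed fragments, in normalized reads on a log axis, with 1 point per mouse (blue *db/+*, red *db/db*). The 3 *db/+* points of mt-tRNA-Glu lie between 834 and 997, closer together than those of the other tRNAs shown. The nuclear tRNA-Glu has the highest sums, from 1102 to 3245.

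The parents whose pattern over the 6 libraries was most like that of mt-tRNA-Glu were the nuclear tRNA-Gln-CTG (3 fragments), the nuclear tRNA-Arg-TCG (1 fragment) and mt-tRNA-Ala (9 fragments). Likeness was measured as the mean absolute difference of log2(sum + 1) after each parent's own mean was subtracted, and was 0.17, 0.21 and 0.31. Since all 30 parents come from fragments listed as decreased, part of this likeness is given by the list.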

How the data were processed

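The authors treated islet RNA with the rtStar pretreatment kit, which removes some base methylations, charged amino acids and blocked ends, prepared libraries from it with a QIAseq miRNA kit, took tRNA annotation from mitotRNAdb, GtRNAdb and tRNAscan-SE, and required 2 reads to call a tRF. FastQC is named in the submitters' processing notes. Which aligner, genome build and handling of molecular identifiers were used is not stated in these sources. In the deposited table of decreased tRFs, the raw counts by the authors are whole numbers, without scaling. The mean signal that the authors deposited is the mean of counts over DESeq2 size factors, from which the 6 factors were solved (largest misfit 2.27e-12). Its fold changes, standard errors, test statistics and p-values from the authors' DESeq2 comparison were not used.

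Each tRF was tested with edgeR 4.0.16 (R 4.3.3; quasi-likelihood, library sizes proportional to the size factors, no filter, Benjamini-Hochberg over 170). Standard errors are the log2 fold change over the square root of F. Sums per parent used limma 3.58.1 on log2(sum + 1), and single values the exact permutation test. DESeq2 1.42.0 was an alternative. The tests were checked on simulated data. That check did not model the selection of the list or a change of scaling, so it cannot speak to either. Nothing says that a replicate number marks a shared litter or day. Coordinates come from matching sequences to GENCODE M21 (GRCm38). Python 3.11.15, NumPy 2.4.6, pandas 2.3.3, SciPy 1.17.1 and matplotlib 3.10.9 were used. All 9 members are named. Of other tRNAs, the light-strand mt-tRNAs, the nuclear tRNA-Glu-TTC, the neighbours by level and the 3 most alike in pattern are named. The members and lists were chosen with earlier results of these data known. Alternatives were other pseudocounts (0.5 and 5), a mean level of at least 10, limma without its trend, stricter thresholds, other scalings, a replicate block and leaving out each library.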

Additional observations from a re-analysis of the deposited data

How the results depend on the processing

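The count of 9 fragments that passed edgeR's test was 9 with DESeq2 (170 of the 170 listed tRFs) or a mean level of at least 10 (149 of 153). It was 5 at an adjusted p of at most 0.01 (72.4% of the list) and 3 with a decrease of at least 4-fold (76.5%). After rescaling to the listed nuclear tRFs 0 of the 9 and 2 of the 170 passed, and with TMM factors over the list 0 of the 9 and 0 of the 170, so that these zeros belong to the whole list. Both of those scalings are computed from tRFs listed as decreased, so they remove part of the decrease that the list shares. The median log2 fold change of the 170 was still -1.16 after rescaling to the nuclear tRFs and -0.44 with TMM. How much of that shared decrease comes from the selection was not tested. With TMM the log2 fold changes of the 3′ fragments from bases 30, 32, 33, 34, 35 and 36 were 0.23, 0.46, 0.12, 0.039, 0.57 and 0.44. With each library left out in turn, 5 to 9 of the 9 and 143 to 162 of the 170 passed, with 5 and 149 without *db/+* replicate 2, and the difference of the sum ran from -2.26 to -1.58. It was -0.70 after rescaling to the nuclear tRFs and -1.88 without the fragment from base 34, an alternative chosen after the data were seen. With the replicate number as a block, 8 of the 9 and 161 of the 170 passed (the fragment from base 35 did not, adjusted p = 0.0537, edgeR) and the sum differed by -2.01 (adjusted p = 0.00156, limma). The replicate numbers were not used as pairs, since same-numbered libraries correlated at 0.21, -0.26 and -0.22. The other alternatives for the sum, the shares and the comparisons with other tRNAs moved the values by less than the spread between libraries. For the share of the fragment from base 34 that spread came largely from *db/+* replicate 3. Leaving this library out moved the difference from -2.91 to 7.93 percentage points, with a change of sign. Counts of 2 to 162 reads per fragment and library in *db/db* mice limit the precision.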
